A study of Mus musculus with 6 samples.

Results

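Transcripts of 8 bone matrix genes were followed in bulk RNA sequencing of the mouse inner ear. They were the SIBLING genes Spp1, Ibsp, Dmp1, Mepe and Dspp, the osteocalcin genes Bglap and Bglap2, and Ifitm5, 8 of 55401 genes in the deposited count table. The members were chosen by gene family and name, with changes of this same genotype comparison already known, among them the change of Spp1. Their differences between the genotypes are therefore given as a description and carry no independent support. Libraries came from Pou3f4 mutant mice (KO, genotype written Pou3f4y/-, n = 3) and from wild-type mice (WT, n = 3), and the comparison was made to look for a mechanism of pigmentation in the mutant ear. Pou3f4, a gene of the X chromosome, encodes a transcription factor that the otic mesenchyme uses during ear development. The labels give the tissue as inner ear with cells of every type, although 1 field reads interstitial cells. They give no strain, age, sex, dissection or part of the gene that the mutant allele lacks.

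The SIBLING proteins are acidic, phosphorylated glycoproteins that osteoblasts, osteocytes and odontoblasts secrete into mineralising matrix, where they bind calcium and, through an RGD sequence, integrins. Their genes lie side by side in mammalian genomes. Osteocalcin is a small matrix protein whose glutamates are carboxylated by a vitamin K-dependent enzyme so that it binds bone mineral, and the mouse carries several copies of its gene. Ifitm5 encodes a membrane protein of osteoblasts, and a mutation of its human counterpart causes a form of brittle bone disease. The inner ear is enclosed in the bony otic capsule, so whole-ear RNA can hold transcripts of bone cells.

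The osteocalcin copies bear on how far the reads of Bglap and Bglap2 can be told apart, so their coding sequences are shown first. All 3 come from the GENCODE M21 transcripts (GRCm38, chromosome 3, minus strand) and hold 288 bases, written 5′ to 3′. In Bglap, capitals mark the bases that differ from Bglap2, and in Bglap2 and Bglap3 the bases that differ from Bglap.
Bglap: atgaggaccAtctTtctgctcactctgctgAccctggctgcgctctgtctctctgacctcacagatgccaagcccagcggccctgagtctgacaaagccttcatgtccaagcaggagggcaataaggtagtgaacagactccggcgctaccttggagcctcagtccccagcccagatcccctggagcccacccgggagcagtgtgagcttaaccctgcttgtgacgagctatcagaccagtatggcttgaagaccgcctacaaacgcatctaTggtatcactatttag
Bglap2: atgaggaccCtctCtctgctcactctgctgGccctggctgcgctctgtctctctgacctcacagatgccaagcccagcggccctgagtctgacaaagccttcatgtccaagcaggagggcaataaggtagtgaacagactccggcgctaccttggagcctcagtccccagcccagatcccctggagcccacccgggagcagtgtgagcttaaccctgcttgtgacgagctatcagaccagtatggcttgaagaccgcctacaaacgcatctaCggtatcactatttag
Bglap3: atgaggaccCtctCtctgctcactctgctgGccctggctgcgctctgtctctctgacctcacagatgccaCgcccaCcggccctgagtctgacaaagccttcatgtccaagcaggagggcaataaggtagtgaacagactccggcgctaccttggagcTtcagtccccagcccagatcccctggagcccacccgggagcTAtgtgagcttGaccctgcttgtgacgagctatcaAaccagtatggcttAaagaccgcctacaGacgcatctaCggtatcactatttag
Bglap and Bglap2 were identical at 98.6% of coding positions, with 4 differing bases and an unbroken identical run of 241 bases. Bglap3, expressed mainly outside bone, differed from Bglap at 13 positions. Of all windows of 100 bases along the annotated transcript, 56.3% of those of Bglap and 57.0% of those of Bglap2 occurred unchanged in another copy. How reads that matched several copies were counted is not given in the sources used here, and neither is the use of strand. The levels of Bglap and Bglap2 are thus uncertain as separate genes, and their sum with Bglap3 is given beside them.

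Total counts ranged from 18883922 to 23323953 in KO libraries and from 18409409 to 19133386 in WT libraries. Levels are given as CPM (counts per 1000000, TMM-scaled). Pou3f4 itself held 45, 28 and 30 counts in KO replicates 1 to 3, against 1044, 2140 and 2233 counts in WT replicates 1 to 3, so it matched the label in every library. Xist, which female cells transcribe from their silenced X, stood at 1, 15783 and 15119 counts in KO replicates 1 to 3, against 11165, 9143 and 6 counts in WT replicates 1 to 3. KO replicates 2 and 3 thus held Xist although their genotype is written as hemizygous. Skeletal muscle genes also differed between libraries, with a sum of 8 marker genes of 20.4, 629 and 28.9 CPM in KO replicates 1 to 3, against 4703, 104 and 8170 CPM in WT replicates 1 to 3. All 12 genes of an inner ear marker list, among them Coch, Tectb, Otof and Kcne1, were measured above the filter on low counts. Whether the libraries of a group came from separate animals is not stated, so p-values measure only the spread between these libraries.

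Of the 8 members, 7 passed the filter on low counts, each through both genotypes, and Spp1 was the only one past the threshold of the test across all genes. That test was edgeR's quasi-likelihood F test, with Benjamini-Hochberg adjusted p under 0.05 over 19687 genes, and log2 fold changes are KO over WT. It called 0.396% of all genes in either direction and 0.213% higher in KO. With DESeq2, Spp1 and Ifitm5 were called higher, in a fit that called 2.98% of genes higher and 7.76% in either direction. Fitted changes were above 0 for 5 of the 7 members (not Mepe, nor Ibsp, whose change turned positive with upper-quartile scaling), with a median of 0.57, against −0.01 over all genes tested. The libraries of the genotypes did not overlap for 4 members, Spp1, Bglap, Bglap2 and Ifitm5, all higher in KO, while 27.7% of all genes tested did not overlap in either direction. The members together summed to 17134, 15844 and 16223 CPM in KO replicates 1 to 3, against 10241, 13763 and 11508 CPM in WT replicates 1 to 3. In bulk tissue, more cells of a type and more RNA per cell cannot be told apart.

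Osteopontin, Spp1, a secreted phosphoprotein that binds integrins and CD44 and is made by osteoblasts, osteoclasts and macrophages, rose in KO. Its gene (ENSMUSG00000029304) lies on chromosome 5 from 104435118 to 104441050, plus strand (mm10). The level was 8674, 7876 and 8264 CPM in KO replicates 1 to 3, against 4171, 5121 and 3897 CPM in WT replicates 1 to 3. The lowest KO library stood above the highest WT library. The log2 fold change was 0.91 (SE 0.12, adjusted p = 0.049, edgeR), a level 1.88-fold that of WT. Averaged over all libraries it was the sixth most abundant gene of the table by CPM. The call was narrow: with RLE scaling the adjusted p was 0.0501 (0.90), and it was 0.357, 0.271 and 0.33 when KO replicate 1, 2 or 3 was left out and 0.136 when WT replicate 3 was left out. These 4 fits called 0 genes of the whole table with edgeR (2087 to 3364 at an unadjusted p under 0.05). A model that also held whether a library contained Xist gave 0.92 and an adjusted p of 0.145 for Spp1.

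Part of the Spp1 reads also fall in another gene model. Gm42793, an unconfirmed model on the same strand, overlaps 18.8% of the exon length of Spp1, and 24.7% of its own exons lie in those of Spp1. It held 13.8%, 13.3% and 14.9% as many counts as Spp1 in KO replicates 1 to 3, and 14.1%, 11.7% and 14.9% in WT replicates 1 to 3. That share overlapped between the genotypes. Gm42793 itself stood at 1196, 1051 and 1230 CPM in KO replicates 1 to 3, against 587, 600 and 580 CPM in WT replicates 1 to 3 (0.98, SE 0.09, adjusted p = 0.0387, edgeR). If every one of its counts is taken from Spp1, Spp1 was left at 7478, 6825 and 7034 CPM in KO replicates 1 to 3, against 3584, 4522 and 3318 CPM in WT replicates 1 to 3. The fold change was then 0.90 and the adjusted p 0.0561 (edgeR), so the size stayed close to that of Spp1 as deposited while the call was lost. As only 24.7% of the exons of Gm42793 lie in those of Spp1, taking away all of its counts may remove too many.

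Bone sialoprotein, Ibsp, which nucleates bone mineral and marks osteoblasts that have begun to mineralise, stood at the same mean level in both genotypes. Ibsp (ENSMUSG00000029306, chromosome 5, 104299171 to 104311469, plus strand) had 4999, 4723 and 4838 CPM in KO replicates 1 to 3, against 4025, 5166 and 5406 CPM in WT replicates 1 to 3. The KO libraries lay inside the WT range, with WT replicate 1 lowest of all. The log2 fold change was −0.004 (SE 0.13, adjusted p = 0.99, edgeR). Leaving out each library in turn moved it between −0.14 and 0.08.

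Dmp1 and Mepe are SIBLING genes of osteocytes, Dmp1 a regulator of mineralisation and of phosphate handling and Mepe the source of a peptide that inhibits mineralisation. Dmp1 (ENSMUSG00000029307, chromosome 5, 104202613 to 104214102, plus strand) had 1765, 1710 and 1670 CPM in KO replicates 1 to 3, against 1219, 1896 and 1176 CPM in WT replicates 1 to 3. WT replicate 2 stood above every KO library and the other two WT libraries below them (0.26, SE 0.19, adjusted p = 0.479, edgeR). Mepe (ENSMUSG00000053863, chromosome 5, 104325329 to 104338611, plus strand) had 346, 338 and 299 CPM in KO replicates 1 to 3, against 305, 485 and 456 CPM in WT replicates 1 to 3. It was the member with the lowest fitted change, −0.34 (SE 0.18, adjusted p = 0.345, edgeR), and WT replicate 1 lay among the KO libraries. Without WT replicate 1 Mepe was called lower (−0.53, adjusted p = 0.0206, edgeR), in a fit that called 9.06% of all genes. Without WT replicate 2 Dmp1 was called higher (0.52, adjusted p = 0.0405, edgeR), in a fit that called 3.78%. Without WT replicate 1 the change of Dmp1 was 0.15 (adjusted p = 0.629, edgeR), and without WT replicate 3 it was 0.14 (adjusted p = 0.7225, edgeR). Mepe was not called with any other library left out, nor was Dmp1.

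Dspp, the precursor of the dentin proteins of teeth, was close to absent. It (ENSMUSG00000053268, chromosome 5, 104170712 to 104180127, plus strand) held 6, 11 and 5 counts in KO replicates 1 to 3, against 4, 13 and 9 counts in WT replicates 1 to 3. At 0.479 CPM or less in KO and 0.678 CPM or less in WT it did not pass the filter and was not tested.

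**Figure D1:**
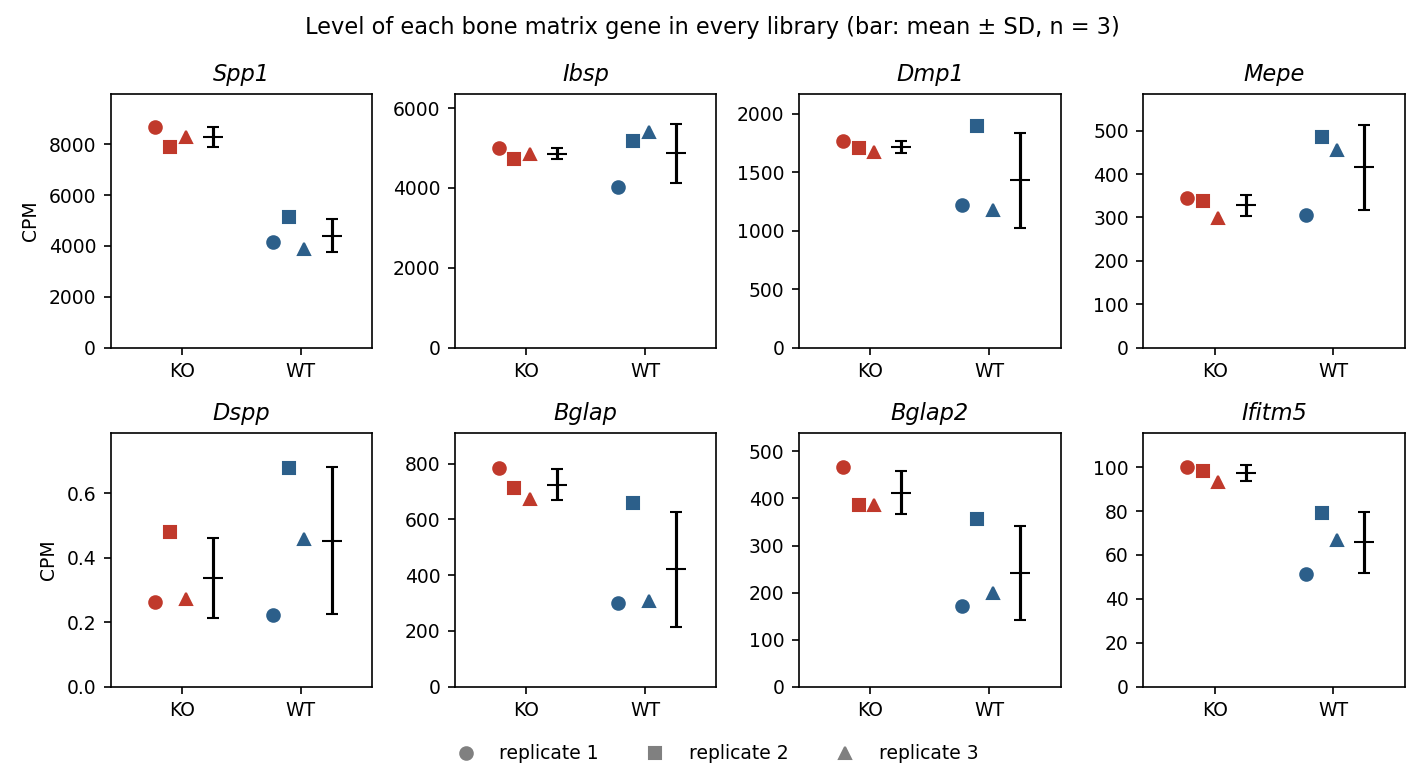
Level in CPM (linear axis from 0) of each of the 8 members in every library, KO (red) left of WT (blue), with the mean ± SD of 3 libraries as a bar. The 3 KO libraries of Spp1, at 7876 to 8674 CPM, stand above all WT libraries, while WT replicate 2 lies close to the KO libraries for Bglap and Bglap2 and above them for Dmp1.

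The 5 SIBLING genes span 270.3 kb of chromosome 5 on the same strand, in the order Dspp, Dmp1, Ibsp, Mepe and Spp1. Their fitted changes did not follow one direction along the cluster, with Spp1 and Dmp1 above 0, Mepe below 0, and Ibsp so close to 0 that its sign turned with upper-quartile scaling (0.011). Spp1, the member that was called, lies at the end of the cluster, 96.5 kb beyond Mepe.

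**Figure D2:**
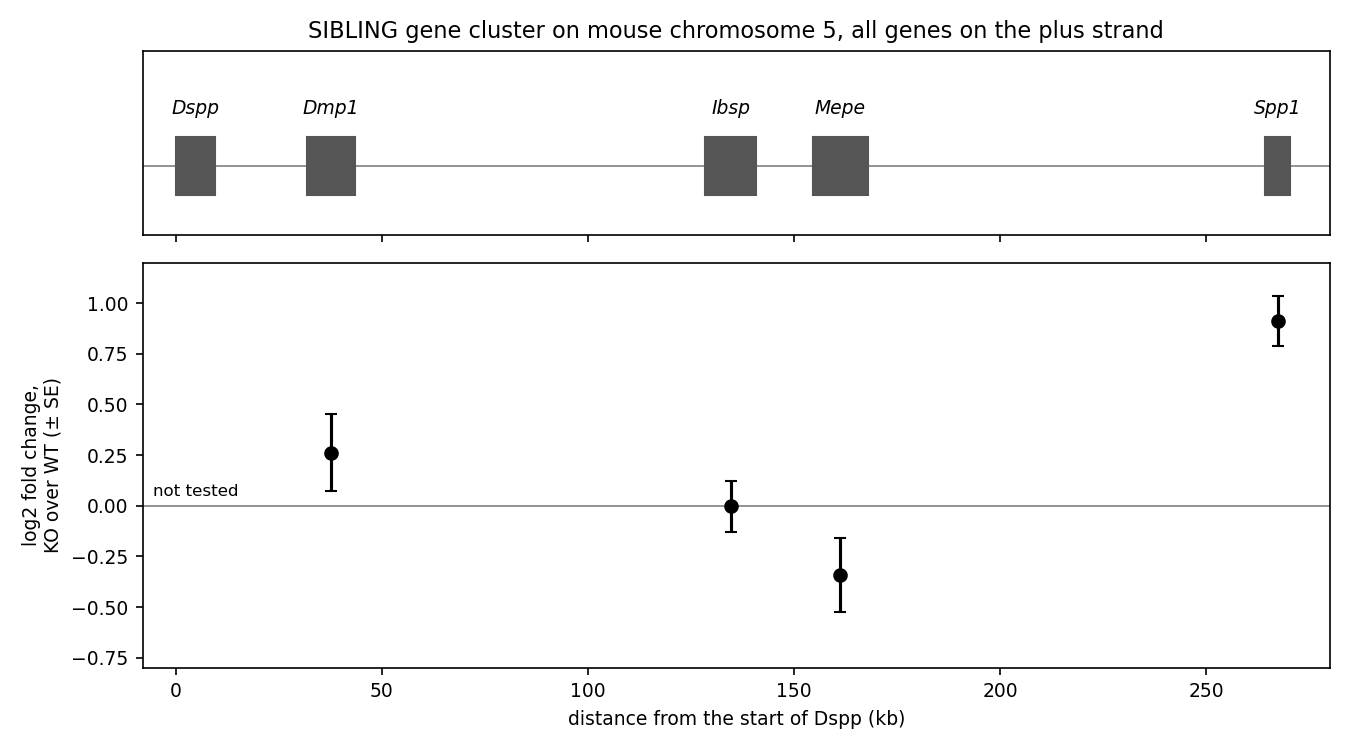
Map of the SIBLING genes by distance in kb from the start of Dspp (top) and log2 fold change, KO over WT, with its SE (bottom). Spp1 at the right end stands at 0.91, Mepe at −0.34 and Ibsp at 0 within its SE, and Dspp was not tested.

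The osteocalcin genes, products of mature osteoblasts, were higher in every KO library than in any WT library but did not pass the test. Bglap (ENSMUSG00000074483, chromosome 3, 88383501 to 88384464, minus strand) had 785, 712 and 674 CPM in KO replicates 1 to 3, against 299.6, 658 and 305 CPM in WT replicates 1 to 3. Bglap2 (ENSMUSG00000074486, chromosome 3, 88377736 to 88378699, minus strand) had 466, 387 and 385 CPM in KO replicates 1 to 3, against 171, 356 and 199 CPM in WT replicates 1 to 3. In both genes WT replicate 2 lay just under the lowest KO library, and the other two WT libraries were far lower. The log2 fold changes were 0.78 (SE 0.31, adjusted p = 0.238, edgeR) for Bglap and 0.77 (SE 0.28, adjusted p = 0.201) for Bglap2. Without WT replicate 2 they were 1.26 and 1.16, with adjusted p of 0.0204 and 0.0265 in the same fit as for Dmp1. Without WT replicate 1 they were 0.58 and 0.56 (adjusted p = 0.243 and 0.174, edgeR). Without KO replicate 1, in a fit that called 0 genes, adjusted p was 0.504 and 0.4845 (edgeR).

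The third copy was far less abundant and more variable. Bglap3 (ENSMUSG00000074489, chromosome 3, 88368616 to 88372743, minus strand) had 34.6, 14.6 and 28.7 CPM in KO replicates 1 to 3, against 13.9, 21.7 and 11.8 CPM in WT replicates 1 to 3, and the genotypes overlapped. The 3 copies summed to 1286, 1114 and 1088 CPM in KO replicates 1 to 3, against 484, 1037 and 517 CPM in WT replicates 1 to 3. As a single feature in the fit the sum had a log2 fold change of 0.78 (adjusted p = 0.222, edgeR). Bglap held 1.68, 1.84 and 1.75 times the counts of Bglap2 in KO replicates 1 to 3, against 1.76, 1.85 and 1.53 times in WT replicates 1 to 3, an overlapping ratio.

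Ifitm5 stood higher in every KO library than in any WT library. It (ENSMUSG00000025489, chromosome 7, 140948958 to 140950291, minus strand) had 100.2, 98.2 and 93.1 CPM in KO replicates 1 to 3, against 51.2, 78.9 and 66.9 CPM in WT replicates 1 to 3. The log2 fold change was 0.57 (SE 0.15, adjusted p = 0.146, edgeR), and DESeq2 called it (0.56, adjusted p = 0.0312). Leaving out WT replicate 1 (0.40, adjusted p = 0.0397, edgeR) or WT replicate 2 (0.72, adjusted p = 0.0465, edgeR) also gave a call. Leaving out WT replicate 3 or any KO replicate did not (adjusted p = 0.254 to 0.454, edgeR), in fits that called 0 genes. The read-through model Gm45717 on the same strand consists of exons shared with Ifitm5 and its neighbour Ifitm2, covering 29.7% of the exon length of Ifitm5. It held 93.5% to 95.0% of the summed counts of Ifitm5 and Ifitm2 in KO libraries and 93.7% to 95.2% in WT libraries. As its exons are shared, it may hold reads of these genes counted again, which was not tested. Ifitm2, an antiviral family member, stood at 132 ± 3.26 CPM in KO and 126 ± 21.8 CPM in WT (SD, n = 3 each).

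**Figure D3:**
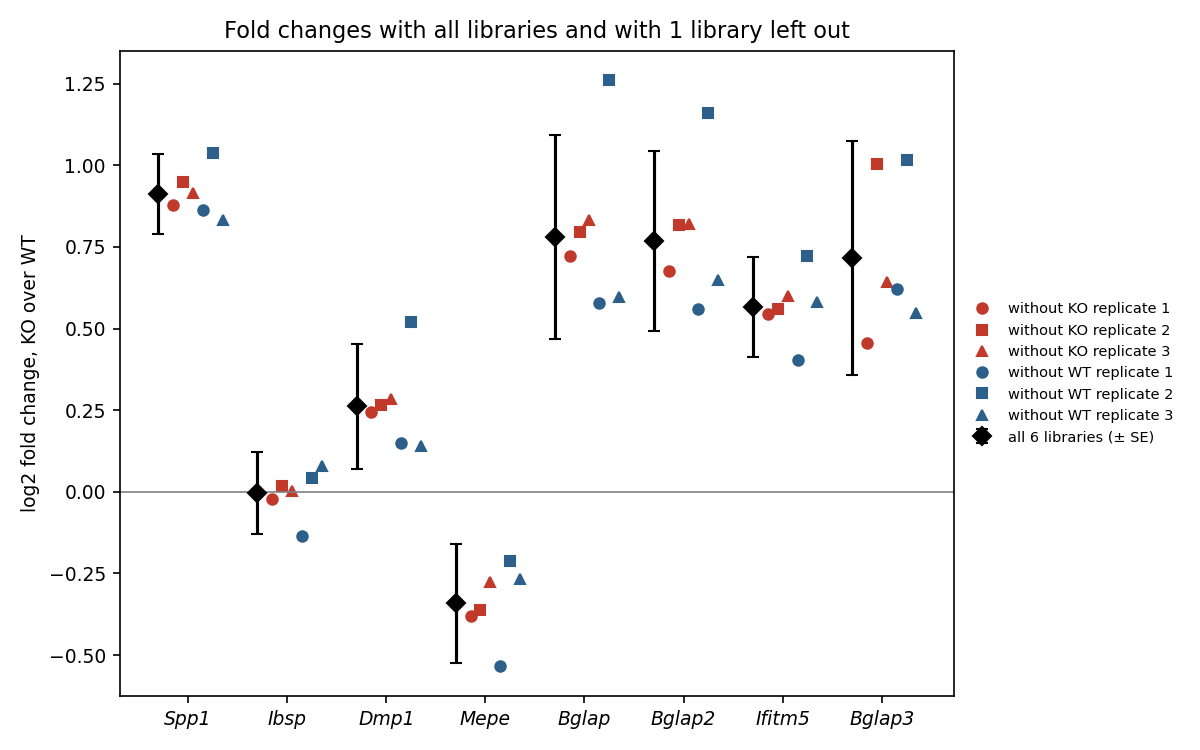
Log2 fold change, KO over WT, of the 7 tested members and Bglap3 with all 6 libraries (black, ± SE) and with each library left out (KO red, WT blue). Spp1 stays between 0.83 and 1.04 and Mepe below 0, and Ibsp lies on both sides of 0. Leaving out WT replicate 2 raises Bglap to 1.26, and leaving out WT replicate 1 lowers it to 0.58.

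For every tested member the coefficient of variation between libraries was larger in WT than in KO. That of Dmp1 was 2.78% in KO and 28.2% in WT, that of Bglap 7.77% in KO and 48.8% in WT, and that of Spp1 4.82% in KO and 14.6% in WT. It went the other way for Gm42793 (8.19% in KO and 1.74% in WT) and Bglap3 (39.6% in KO and 32.9% in WT). The share of all genes with a larger spread in WT was not counted, and a spread over 3 libraries is itself uncertain. Among WT libraries, replicate 1 was the lowest for Ibsp, Mepe, Bglap, Bglap2 and Ifitm5, while replicate 3 was the lowest for Spp1 and Dmp1. Replicate 2 was the highest for every tested member but Ibsp. WT replicate 2 was also the WT library with the least muscle RNA, 104 CPM against 4703 and 8170 CPM. The part of muscle in these differences was not tested. With mitochondrial, haemoglobin and muscle genes left out before scaling, Spp1 remained the only member called, in a fit of 19644 genes. Its change was 0.91 with and without those genes. Leaving out listed genes does not remove the other RNA of muscle tissue, so this fit cannot show the part of muscle.

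Ratios of members within a library do not depend on how libraries are scaled. The count ratio of Spp1 to Ibsp was 1.74, 1.67 and 1.71 in KO replicates 1 to 3, against 1.04, 0.991 and 0.721 in WT replicates 1 to 3. Relative to Ibsp, Spp1 was thus higher in every KO library. Ibsp against Bglap gave ratios of 6.37, 6.63 and 7.17 in KO replicates 1 to 3, against 13.4, 7.85 and 17.7 in WT replicates 1 to 3. Dmp1 against Bglap gave 2.25, 2.40 and 2.48 in KO replicates 1 to 3, against 4.07, 2.88 and 3.85 in WT replicates 1 to 3. Dmp1 against Mepe, both osteocyte genes, gave 5.10, 5.06 and 5.58 in KO replicates 1 to 3, against 4.00, 3.91 and 2.58 in WT replicates 1 to 3. The ratio of Ibsp to Dmp1 overlapped, at 2.83, 2.76 and 2.90 in KO replicates 1 to 3 and 3.30, 2.72 and 4.60 in WT replicates 1 to 3.

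Of the 21 ratios among the 7 tested members, 13 did not overlap between the genotypes. Among all pairs of tested genes with a mean of at least 10 CPM, 32.0% of ratios did not overlap. The 21 ratios share members and are not independent, and they come from the same contrast that was known when the members were chosen, so nothing further is read from that count. Every ratio of Mepe to another member was lower in KO without overlap. Ratios among Spp1, Bglap, Bglap2 and Ifitm5 all overlapped between the genotypes, which does not show that these members kept step. Spp1 to Ifitm5 gave 86.5, 80.2 and 88.7 in KO replicates 1 to 3, against 81.4, 64.9 and 58.3 in WT replicates 1 to 3. That ratio overlapped through WT replicate 1 alone.

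**Figure D4:**
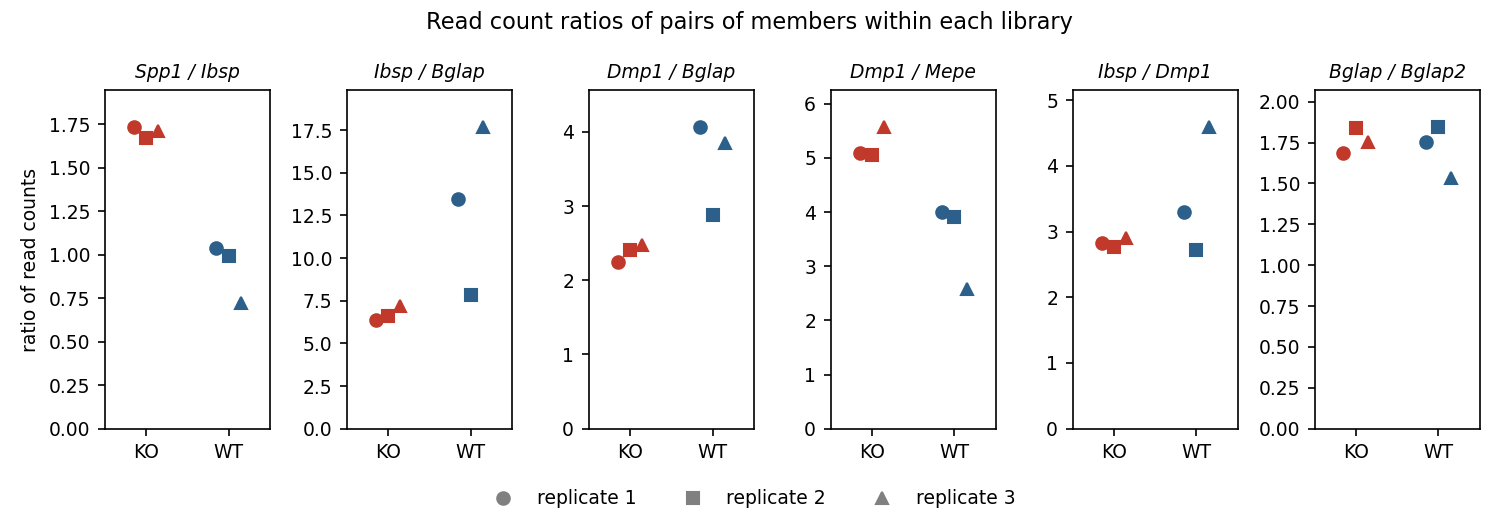
Read count ratios of 6 pairs of members in every library, KO (red) left of WT (blue), on linear axes from 0. Spp1 over Ibsp lies at 1.67 to 1.74 in KO libraries and at 0.721 to 1.04 in WT libraries, whereas Ibsp over Dmp1 and Bglap over Bglap2 overlap.

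Levels of different genes were compared per kb of summed exon length. In KO libraries the order was Spp1 (5019 ± 242 CPM per kb), Ibsp (2347 ± 67.0), Bglap (1171 ± 91.1), Bglap2 (876 ± 98.4), Dmp1 (620.4 ± 17.3), Mepe (195 ± 14.8), Ifitm5 (127 ± 4.79) and Dspp (0.0761 ± 0.0278), as mean ± SD of 3 libraries. No neighbours in that order overlapped. In WT libraries the order was Spp1 (2668 ± 390 CPM per kb), Ibsp (2353 ± 357), Bglap (681 ± 332), Dmp1 (517.5 ± 146), Bglap2 (514 ± 212), Mepe (247 ± 57.7), Ifitm5 (85.8 ± 18.1) and Dspp (0.102 ± 0.0513). There Spp1 and Ibsp overlapped, as did Bglap with Dmp1 and Dmp1 with Bglap2. As a share of the members' summed CPM per kb, Spp1 made up 48.2%, 47.9% and 49.3% in KO replicates 1 to 3, against 42.1%, 36.5% and 35.4% in WT replicates 1 to 3. Ibsp made up 22.1%, 22.9% and 23.01% in KO replicates 1 to 3, against 32.4%, 29.4% and 39.1% in WT replicates 1 to 3. Neither share overlapped between the genotypes. Shares of the members sum to a fixed whole, so a higher level of 1 member lowers the shares of the others. The level of Ibsp itself had a log2 fold change of −0.004, with the KO libraries inside the WT range. How often shares in other sets of genes do not overlap was not counted. Dividing by the longest transcript kept the order in both genotypes, although Bglap then stood at 1645 CPM per kb in KO and 957 CPM per kb in WT.

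Some members varied together within genotypes and others less so. After removing each genotype's mean, log2 CPM of Dmp1 and Bglap had a Pearson r of 0.99 over the 6 libraries, Mepe and Ifitm5 0.96, Spp1 and Dmp1 0.95, and Ibsp and Mepe 0.92. The lowest of the 21 values were 0.19 for Spp1 and Ibsp, 0.31 for Ibsp and Dmp1, 0.37 for Spp1 and Mepe, and 0.40 for Ibsp and Bglap. These values rest on 6 libraries that share their depth and tissue composition, and no test was made. The WT libraries spread more widely, with a coefficient of variation of 28.2% for Dmp1 in WT and 2.78% in KO. The values thus weigh the WT libraries more and do not describe each genotype separately.

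The machinery that works on these proteins was read from the same fit, in which 3867 of all 19687 genes had an unadjusted p under 0.05. Of 10 genes for phosphorylation, cleavage or crosslinking of SIBLING proteins, all tested, 0 passed (edgeR, with 5 at an unadjusted p under 0.05, and DESeq2 called 3 higher), with a median log2 fold change of 0.24. The matrix metalloproteinase Mmp9 stood at 3370.5 ± 175 CPM in KO and 2111 ± 367 CPM in WT (SD, n = 3 each). Acp5, the phosphatase that dephosphorylates osteopontin, stood at 2348 ± 97.1 CPM in KO and 1339 ± 446 CPM in WT (SD, n = 3 each). Both are also osteoclast genes and were counted again in the osteoclast list below, so these lists are not separate readings. Of 5 genes of the vitamin K cycle and pro-osteocalcin cleavage, 0 passed (2 at an unadjusted p under 0.05, and DESeq2 called 2 higher), with a median of 0.08. Furin, a convertase, stood at 101 ± 8.14 CPM in KO and 103 ± 17.2 CPM in WT, and Vkorc1l1, a vitamin K epoxide reductase, at 73.9 ± 1.47 CPM in KO and 69.9 ± 4.71 CPM in WT. The 2 called by DESeq2, chosen after their values were seen, were the carboxylase Ggcx at 24.0 ± 1.96 CPM in KO and 15.2 ± 1.32 CPM in WT, and the reductase Vkorc1 at 77.8 ± 4.79 CPM in KO and 45.7 ± 7.26 CPM in WT.

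Of 11 receptor genes, 10 were tested and 0 passed (edgeR, with 4 at an unadjusted p under 0.05, and DESeq2 called 3 higher and 1 lower), with a median of 0.20. The integrin subunits Itgb1 and Itgav were the most abundant, at 838 ± 34.9 and 320 ± 5.89 CPM in KO, against 727 ± 112 and 205 ± 36.5 CPM in WT. Gm13684, on the other strand, covers 5.9% of the Itgav exons. Gprc6a, proposed as an osteocalcin receptor, did not pass the filter on low counts. Among relatives of the SIBLING genes, 5 of 9 were tested and 0 passed (2 at an unadjusted p under 0.05, and DESeq2 called Sparc higher and Sparcl1 lower), with a median of −0.13. Osteonectin, Sparc, stood at 12581 ± 198 CPM in KO and 8895 ± 251 CPM in WT (adjusted p = 0.0599, edgeR), and Sparcl1 at 719 ± 16.8 CPM in KO and 1067 ± 244 CPM in WT.

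Genes of the cells that make these proteins were read next. Of 10 genes of osteoblast matrix and mineralisation 2 rose, the type I collagen chains Col1a1 and Col1a2, and 0 fell, with a median of 0.27 (5 at an unadjusted p under 0.05, and DESeq2 called 5 higher). Fitted changes were above 0 for 8 of the 10 and below 0 for 2, Slc20a1 (−0.18) and Omd (−0.11). Col1a1 was at 31361 ± 2357 CPM in KO and 15598 ± 2430 CPM in WT (1.01, SE 0.13, adjusted p = 0.049, edgeR). Col1a2 was at 36127 ± 1821 CPM in KO and 17593 ± 3022 CPM in WT (1.04, SE 0.14, adjusted p = 0.049, edgeR). Their calls were lost in the fits without WT replicate 3 or any KO library, as were all calls, and with RLE scaling (adjusted p = 0.0501 for each, edgeR). That of Col1a2 was also lost with library sizes computed without both collagen genes, Sparc and the members (adjusted p = 0.0503, edgeR). Of 9 osteoblast transcription factors 0 passed (5 at an unadjusted p under 0.05, and DESeq2 called 2 higher), with a median of 0.39. Sp7, which osteoblast differentiation requires, stood at 304 ± 11.9 CPM in KO and 202 ± 65.7 CPM in WT. Fitted changes were above 0 for 5 of the 9 and below 0 for 4. Those below 0 were Msx2 (−0.72), Dlx6 (−0.35), Atf4 (−0.03) and Dlx5 (−0.003).

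Of 5 osteocyte genes 4 were tested and 0 passed (2 at an unadjusted p under 0.05, 0 with DESeq2), with a median of 0.24. Phex, an endopeptidase that cleaves SIBLING peptides and was also counted among the cleavage genes above, stood at 1017 ± 9.68 CPM in KO and 679 ± 207 CPM in WT. The WNT inhibitor Dkk1 stood at 128 ± 17.4 CPM in KO and 64.9 ± 33.0 CPM in WT. The other tested genes of the list had fitted changes below 0, −0.19 for the WNT inhibitor Sost (80.5 ± 10.98 CPM in KO and 91.9 ± 21.7 CPM in WT) and −0.10 for Pdpn (1.33 ± 0.133 CPM in KO and 1.44 ± 0.870 CPM in WT). In the IFITM family and the partners of Ifitm5, 1 of 9 genes rose and 0 fell, with a median of −0.02 (2 at an unadjusted p under 0.05, and DESeq2 called 1 higher). The gene was Fkbp11, a prolyl isomerase that binds Ifitm5, at 40.3 ± 1.72 CPM in KO and 19.3 ± 1.90 CPM in WT (1.06, SE 0.11, adjusted p = 0.0387, edgeR). The other listed partners had changes below 0, −0.14 for Cd81 and −0.38 for Ptgfrn (adjusted p = 0.386 and 0.58, edgeR). The 6 other IFITM genes had changes between −0.66 and 0.19.

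**Figure D5:**
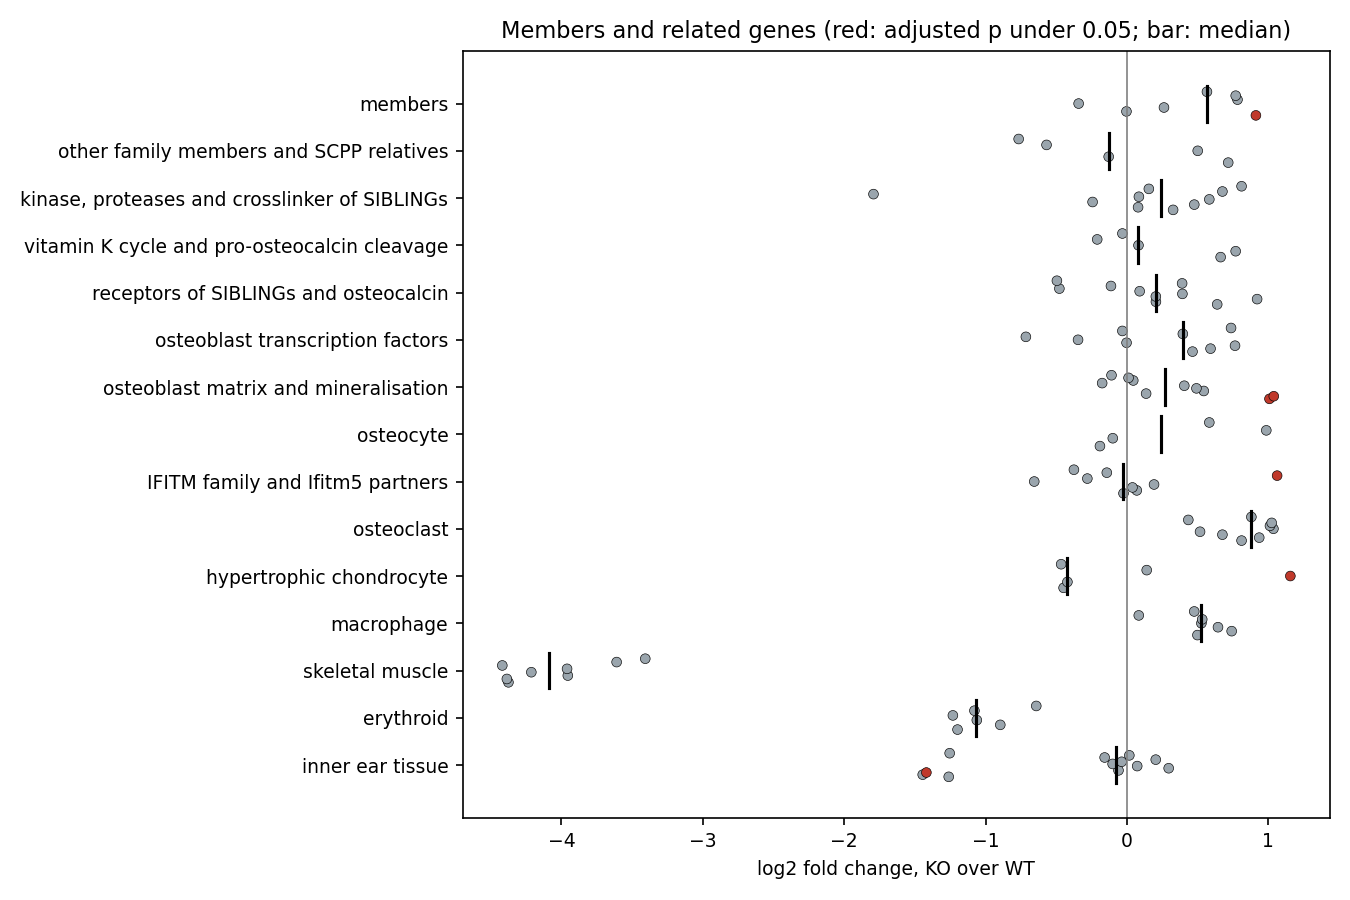
Log2 fold change, KO over WT, of the tested members and of related genes by list, with genes past the threshold in red and the median of each list as a bar. Red points are Spp1 among the members, Col1a1 and Col1a2, Fkbp11 and Mmp13 to the right, and Otor to the left.

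Spp1 is also made by other cells, so their markers were read beside it. All 9 osteoclast genes had changes above 0, with a median of 0.88, and 0 passed (edgeR, with 8 at an unadjusted p under 0.05, and DESeq2 called 7 higher). Their summed level was 10090 to 10740 CPM in KO libraries and 4494 to 7053 CPM in WT libraries, and none was at 0. Cathepsin K, Ctsk, stood at 4139 ± 175 CPM in KO and 2164 ± 564 CPM in WT. All 7 macrophage genes were above 0 with a median of 0.53 and 0 passed (6 at an unadjusted p under 0.05, and DESeq2 called 3 higher), with sums of 664 to 726 CPM in KO libraries and 378 to 494 CPM in WT libraries. Csf1r, whose exons overlap Hmgxb3 over 15.1%, stood at 376 ± 8.82 CPM in KO and 225 ± 35.6 CPM in WT, and Cd68 at 137 ± 6.33 CPM in KO and 87.5 ± 22.4 CPM in WT. Of 5 genes of hypertrophic chondrocytes, 1 rose, Mmp13, a collagenase that osteoblasts also make, at 2370 ± 134 CPM in KO and 1064 ± 169.9 CPM in WT (1.16, SE 0.14, adjusted p = 0.049, edgeR). The median of that list was −0.42 (2 at an unadjusted p under 0.05, and DESeq2 called 1 higher), and its type X collagen gene, Col10a1, chosen after its values were seen, had a change of −0.45 (adjusted p = 0.518, edgeR). The part of osteoclasts, macrophages or chondrocytes in the change of Spp1 was not tested.

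The 8 muscle genes and 6 erythroid genes had changes below 0, with medians of −4.09 and −1.07. In both lists 0 genes passed (edgeR, with 2 at an unadjusted p under 0.05 in each, and DESeq2 called 0 and 1 lower). Acta1 stood at 98.7 ± 160 CPM in KO and 2064 ± 1918 CPM in WT, Myh1 at 28.8 ± 43.6 CPM in KO and 618 ± 588 CPM in WT, Hbb-bs at 969 ± 242 CPM in KO and 2223 ± 1169 CPM in WT, and Hba-a1 at 881 ± 209 CPM in KO and 1839 ± 969 CPM in WT. In the inner ear list 1 of 12 genes fell, Otor, a secreted cochlear protein (−1.42, SE 0.15, adjusted p = 0.0387, edgeR). In that list 5 had an unadjusted p under 0.05, and DESeq2 called Otor and Emilin2 lower. Emilin2, Coch and Otos, chosen after their values were seen, had changes of −1.25, −1.26 and −1.44. Tectb, chosen likewise, went the other way, with a change of 0.29 (unadjusted p = 0.014, adjusted p = 0.167, edgeR). Fitted changes were above 0 for 4 of the 12 genes and below 0 for 8. The list had a median of −0.08, and its summed level was 745 to 865 CPM in KO libraries and 802 to 2062 CPM in WT libraries, with WT replicate 1 at 802 CPM.

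The genes whose pattern over the 6 libraries was most like a member were taken among 11151 protein-coding genes with a mean of at least 10 CPM. For Spp1 they were Mdfi, Cd109 and Tirap (Pearson r 0.997, 0.996 and 0.994 on log2 CPM), and after removing genotype means r was 0.961, 0.939 and 0.977. For Ibsp they were Elane, Cacna1e and Kcnj2 (0.998, 0.996 and 0.996), for Dmp1 Lipa, Col25a1 and Sdcbp (0.991, 0.99 and 0.99), and for Mepe Cplx1 and Mapk10 (0.999 and 0.998). For Bglap they were Srsf9, Sae1 and C1galt1 (0.999, 0.997 and 0.994), and for Bglap2 Srsf9, C1galt1 and Gtpbp3 (0.994, 0.994 and 0.993). For Ifitm5 they were Rerg, Atp6v1b2 and Ipo8 (0.999, 0.998 and 0.997). With 6 libraries and 11151 genes, values of this size are reached for each member, and no test was made.

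Promoters are shown for Spp1 and Bglap, members whose levels did not overlap between the genotypes and whose window held a RUNX motif, the sequence that the osteoblast regulator Runx2 recognises. The motif was searched as TGTGGT on both strands, which reads ACCACA on the other, in the 250 bases before each RefSeq start site (GRCm38.p6). Windows were found for 6 of the 8 members. The bases run 5′ to 3′ on the gene's strand and end just before its start, with the motif in capitals. The Spp1 window is chr5:104434861-104435110, plus strand, and the Bglap window is chr3:88384467-88384716, minus strand.
Spp1: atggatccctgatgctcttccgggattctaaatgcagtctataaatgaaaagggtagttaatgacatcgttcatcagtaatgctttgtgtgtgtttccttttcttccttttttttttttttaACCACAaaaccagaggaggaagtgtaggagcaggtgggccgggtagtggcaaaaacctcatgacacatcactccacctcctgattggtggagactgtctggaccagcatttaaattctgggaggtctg
Bglap: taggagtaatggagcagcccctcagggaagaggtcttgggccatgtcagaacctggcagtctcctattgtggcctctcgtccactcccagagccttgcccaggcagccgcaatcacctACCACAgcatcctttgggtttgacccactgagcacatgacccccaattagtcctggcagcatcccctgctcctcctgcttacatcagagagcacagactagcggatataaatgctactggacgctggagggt
The motif begins 128 bases before the start of Spp1 and 132 bases before that of Bglap. The window of another start site of Spp1 did not hold it. It was also found in the window of Mepe, with 2 matches, and in that of 1 of the 2 start sites of Dmp1, and not in those of Ibsp and Ifitm5. Of 32851 promoter windows of the same length in the reference table, 14.0% held it. That share counts windows, while some members have more than 1 start site. The promoters shown were picked by both the levels and the motif, so finding the motif in them is no result. Ifitm5, whose levels also did not overlap, lacked the motif, and Mepe, whose fitted change was below 0, held it. A match describes these letters only.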

How the data were processed

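RNA was extracted with TRIzol and libraries were made with a stranded mRNA kit, per the labels' protocols. The authors deposited 1 table of whole-number read counts per gene for the 6 libraries, made with HISAT2, HTSeq, Cufflinks and Trimmomatic on the build mm10, as named without versions, order or settings per the submitters' processing notes. The members and gene lists were chosen with earlier results of these data known. Counts were filtered with filterByExpr, scaled by TMM and tested with edgeR 4.0.16 in R 4.3.3 (quasi-likelihood F test, genotype alone, Benjamini-Hochberg adjustment). A count of 0 would allow up to 3 counts, 0.129 to 0.163 CPM, for counting error only. The alternatives were RLE and upper-quartile scaling, other filters, DESeq2 1.42.0, limma-voom 3.58.1, added model terms, left-out genes and each library left out. The steps were also run on simulated counts, drawn without differences in tissue composition between libraries. That run does not cover such differences in these data. Exon lengths and overlaps came from GENCODE M21, with 55141 of the 55401 genes matched by ID, and promoters from RefSeq. Named genes were Pou3f4, the members, Gm42793 and Bglap3. From each list they were up to 4 genes past the threshold or, with none, the 2 of highest mean CPM, and for each member the 3 protein-coding genes most like it. Of the genes this rule names, 2 are not reported here.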

Additional observations from a re-analysis of the deposited data

How the results depend on the processing

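The direction of Spp1, Dmp1, Mepe, Bglap, Bglap2 and Ifitm5 held in every alternative run, while calls depended on single libraries. Each run used the same 6 libraries or left out 1, so a kept direction is not independent support. For Dmp1 and Mepe the levels overlapped between the genotypes. Of 78 genes called by edgeR, the count was 1505 with DESeq2, 1 with a replicate block, 0 with Xist as a term (3185 at an unadjusted p under 0.05), and 0 to 1814 with a library left out. Of the members, 1 was called in the fit reported, 0 with RLE scaling, the replicate block or Xist as a term, 2 with DESeq2, and 0 to 5 with a library left out. The 5 were called without WT replicate 2, in a fit that called 760 genes (3.78%). The fit that called 1814 genes (9.06%), without WT replicate 1, called 3 members. The replicate numbers did not pair the libraries: same-numbered deviations correlated at −0.133, −0.313 and −0.194, and none of the 6 libraries was closest to its own number. With the block Spp1 had a log2 fold change of 0.92 (adjusted p = 0.22, edgeR). The change of Ibsp, close to 0, turned positive with upper-quartile scaling (0.011), no filter (0.020), limma-voom (0.0080), the replicate block (0.0073) and Xist as a term (0.00022), and ranged from −0.14 to 0.080 with a library left out. That of Furin ranged from −0.14 to 0.082. The cause was not tested. Of 526 alternative values of 33 fold changes, 47 lost a call and 33 gained one. Depth limits only Dspp among the members.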
